A study of Homo sapiens with 2 samples.

Results

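The 35 genes described here copy DNA or prepare the cell to copy it, and they were matched by symbol to the gene table of the files, where all 35 were found once each among 36601 genes. They were read in vehicle-treated HepaRG cells, an established human hepatic cell line that can be differentiated into hepatocyte-like and biliary-like cells; the labels call the cells terminally differentiated NoSpin HepaRG, with liver as the tissue and hepatocyte as the cell type. Both libraries came from the same kind of culture, exposed to 0.1% DMSO for 24 h after 7 days of growth, then dissociated in a buffer that held actinomycin D and anisomycin, fixed, and profiled with 10x Chromium 3′ v3.1 chemistry at 10000 cells loaded. The study was designed around reference chemicals that induce stress responses; chemically treated samples were not analysed here, so the comparisons below are between cells of the same culture. The labels give both libraries 1 biological replicate number. A p-value below therefore reflects only how far these 2 libraries disagree on a difference between cell groups, which may be technical.

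Cells copy their genome once per division, in S phase. In G1 the loading factors CDC6 and CDT1 place the MCM2 to MCM7 ring on origins; CDC45 and the GINS complex then turn the ring into the working helicase, primase and polymerases copy both strands behind it, PCNA clamps the polymerases to DNA, and FEN1 and LIG1 join the fragments of the lagging strand. The genes are switched on together before S phase by E2F factors once cyclin-dependent kinases, among them cyclin E with CDK2, have inactivated the retinoblastoma protein, and several of their proteins are destroyed or kept off DNA once replication has begun. Hepatocytes of adult liver rarely divide, and undifferentiated HepaRG cells proliferate.

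The promoters of 31 of the members were present in a RefSeq table on GRCh38.p14, and 13 of these (41.9%) held an E2F-type motif in the 250 bases before the gene's start. The letters searched on both strands were TTTCCCGC, TTTCGCGC, TTTGCCGC and TTTGGCGC. The same letters occurred in 589 of 15841 protein-coding promoters (3.72%) and in 761 of all 27303 promoters (2.79%). By role, 5 of 9 licensing and helicase genes, 3 of 8 polymerase and ligation genes, 1 of 4 nucleotide genes, 2 of 5 chromatin genes and 2 of 5 entry and checkpoint genes had a match. Of the neighbouring gene lists used below, 5 of 38 other replication genes, 1 of 11 S-phase repair genes, 4 of 18 G1/S regulators and 2 of 16 G2/M genes had one. The CCAAT box, searched on both strands, was present in 19 of 31 members (61.3%), in 14 of 16 G2/M genes (87.5%) and in 34.5% of protein-coding promoters. The median GC content was 68.4% in the members' promoters and 62.4% in protein-coding promoters. A match is a run of letters and not a measured binding site.

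Stretches of 100 bases are shown for 5 members that have a match and whose stretch held no exon base of the gene, chosen to show how the motif lies in helicase, clamp, polymerase and chromatin genes whose levels are given below. They are read 5′ to 3′ on the gene's strand with the motif letters in capitals. The MCM3 stretch is chr6:52284889-52284988 on the minus strand, that of MCM6 chr2:135876502-135876601 on the minus strand, that of PCNA chr20:5126654-5126753 on the minus strand, that of POLA1 chrX:24693709-24693808 on the plus strand, and that of HELLS chr10:94545688-94545787 on the plus strand.
MCM3: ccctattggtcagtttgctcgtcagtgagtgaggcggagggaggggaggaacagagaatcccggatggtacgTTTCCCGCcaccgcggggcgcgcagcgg
MCM6: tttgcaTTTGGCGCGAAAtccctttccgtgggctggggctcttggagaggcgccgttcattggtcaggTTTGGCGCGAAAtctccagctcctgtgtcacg
PCNA: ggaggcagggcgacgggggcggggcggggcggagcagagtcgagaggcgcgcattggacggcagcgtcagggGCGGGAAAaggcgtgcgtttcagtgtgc
POLA1: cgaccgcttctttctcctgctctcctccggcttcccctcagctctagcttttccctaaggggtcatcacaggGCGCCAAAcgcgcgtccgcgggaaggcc
HELLS: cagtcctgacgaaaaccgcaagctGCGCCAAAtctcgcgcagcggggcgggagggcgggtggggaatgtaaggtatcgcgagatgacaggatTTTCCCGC
The matches began 174 bases before the RefSeq start in MCM3, 59 in PCNA and 137 in POLA1. The RefSeq start of MCM3 lies inside the GENCODE 29 span of the gene, whose 5′ end, chr6:52284881, is nearer to the match. MCM6 held 4 matches, beginning 152, 148, 90 and 86 bases before the start, which overlap in pairs so that each pair reads as 1 run of capitals. HELLS held 2, at 76 and 8 bases before the RefSeq start, which lies inside the longer GENCODE 29 span of that gene.

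The libraries held 4591 and 4998 barcodes with 85475317 and 57246647 UMIs, of which 4454 and 4894 barcodes were kept as cells, with medians of 17568 UMIs in library 1 and 10407 in library 2. Throughout, the first of a pair of values from 1 group of cells is library 1 and the second is library 2. Cells were ranked by the summed UMIs of TOP2A, MKI67 and CENPF, which mark late S phase, G2 and mitosis, per 10000 UMIs of the cell. Scores under 5 are called low, 5 to 10 middle and 10 or more high. Where TOP2A and MKI67 alone are the score below, these limits were not used. Cells were ranked anew, each range kept its number of cells, and deeper cells went lower among ties. Low-score cells made up 55.6% and 54.8% of cells (95% exact Clopper-Pearson intervals 54.1 to 57.1% and 53.4 to 56.2%), middle-score cells 11.1% and 11.3% (10.2 to 12.03% and 10.4 to 12.2%), and high-score cells 33.3% and 33.8% (31.9 to 34.7% and 32.5 to 35.2%). The ranges cut a continuous score: 264 and 269 cells lay within 1 unit of the score of 5, and 165 and 195 within 1 unit of the score of 10. Median depth also differed between them, at 16147 and 9553 UMIs in low-score, 18218 and 11402.5 in middle-score and 20894 and 12212 in high-score cells. The hepatocyte markers, 10 genes such as albumin and apolipoproteins, were highest in the low-score cells, with 5036 and 5728 CPM in sum (CPM are a group's UMIs of a gene scaled to a total of 1000000 per library and group), against 1713 and 2384 in middle-score and 1390 and 1391 in high-score cells. Of these 10 markers 9 were lower in high-score than in low-score cells, and 9 were lower in middle-score than in low-score cells. Summed over 6 biliary markers the level was 738 and 745 CPM in low-score, 721 and 688 CPM in middle-score and 504 and 515 CPM in high-score cells. KRT19 alone had 698 CPM in low-score cells of library 1. The 10 mesenchymal markers lay between 197 and 243 CPM in sum, the 5 endothelial markers between 15.1 and 43.6 CPM and the 5 immune markers between 10.1 and 12.1 CPM. The part of cell type and depth in the differences below was not tested beyond the alternatives given.

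All 35 members were higher in middle-score than in low-score cells (edgeR on UMI counts summed per library and score range, Benjamini-Hochberg adjusted p under 0.05), where 16% of the 19043 genes tested were called higher and 14.3% lower. The members' median log2 fold change was 0.98, from 0.58 for CCNE1 to 2.64 for RRM2, beside a median of -0.01 over all genes tested. By role the median was 1.15 for the 11 licensing and helicase genes, 0.92 for the 8 polymerase, clamp and ligation genes, 1.21 for the 4 nucleotide genes, 0.96 for the 6 chromatin and histone genes and 1.15 for the 6 entry and checkpoint genes. Without the 10% of cells with the highest hepatocyte markers, all 35 were still called higher and the median was 0.92. CCNE1 was not called with DESeq2 (adjusted p = 0.12), and its log2 ratio was 0.87 in library 1 and 0.13 in library 2.

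From middle-score to high-score cells the members went separate ways. RRM1, RRM2, TYMS and TK1, the whole nucleotide group, were higher in high-score than in middle-score cells, 30 members were lower, and LIG1 was not called. In that comparison 13.6% of all genes tested were called higher and 12.5% lower. The members' median log2 fold change was -0.68, and by role it was -0.81 for licensing and helicase, -0.40 for polymerases, 0.22 for nucleotide supply, -0.76 for chromatin and -1.28 for entry and checkpoint genes. In sums over cells, fewer cells with the transcript and less transcript per cell cannot be told apart.

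**Figure D1:**
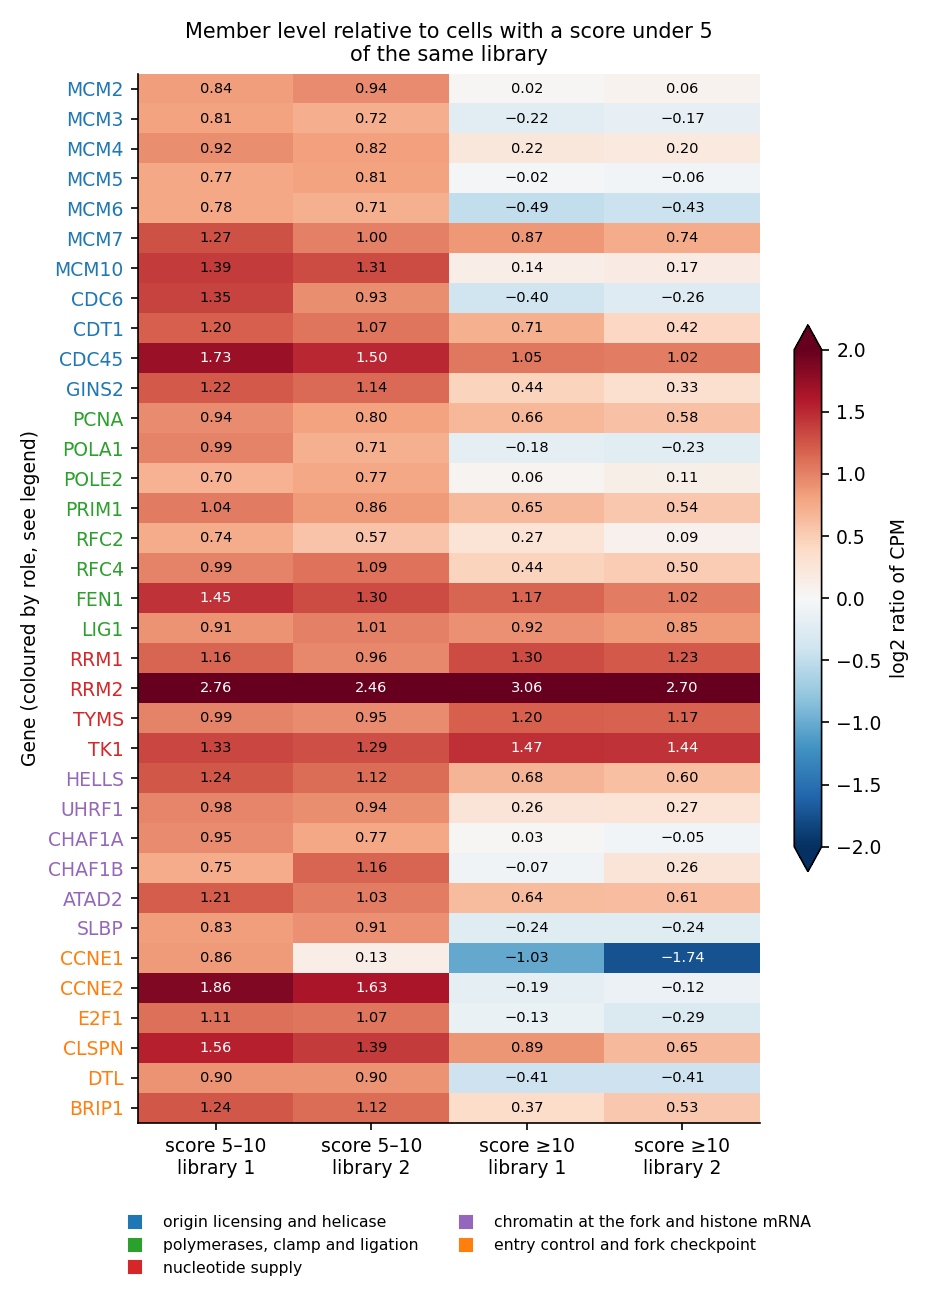
Log2 ratio of CPM in middle-score (5 to 10) and high-score (10 or more) cells over low-score cells of the same library, 1 row per member, with gene names coloured by role and each value written in its cell. The middle-score columns are above 0 for every member in both libraries, and in the high-score columns RRM2 stays highest while CCNE1 is lowest.

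The MCM2 to MCM7 ring is loaded as a whole, but its 6 genes did not keep the same ratios along the score. MCM6 was at 38.8 and 40.5 CPM in low-score cells, 66.5 and 66.2 CPM in middle-score cells and 27.7 and 30.01 CPM in high-score cells. Both high-score values were below both low-score values, with a log2 fold change of -0.43 (SE 0.053, edgeR adjusted p = 3.4e-09) in high-score over low-score cells, and 0.0018 with TOP2A and MKI67 alone as the score. MCM7 was at 44.7 and 50.3, then 108 and 101, then 81.7 and 84.0 CPM along the same ranges. Its high-score values stayed above both low-score values, with a log2 fold change of 0.84 (SE 0.045). Between these 2 subunits, MCM3 was lower in high-score than in low-score cells (-0.16, adjusted p = 0.00055, but 0.21 with TOP2A and MKI67 alone), MCM4 was higher (0.24), and MCM2 and MCM5 were not called (0.07 and -0.01). The MCM7 gene, at chr7:100092728-100101940 on the minus strand of GRCh38, overlaps AP4M1 on the other strand; the strand setting of the counting was not given in the sources used here, so reads of overlapping genes cannot be told apart.

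The loading factor CDC6 had the same order of calls as MCM6, with 17.6 and 19.6 CPM in low-score, 44.7 and 37.3 CPM in middle-score and 13.4 and 16.4 CPM in high-score cells. Its log2 fold change was 1.18 in middle-score over low-score cells and -1.49 in high-score over middle-score cells. In high-score over low-score cells it was -0.30 (edgeR adjusted p = 0.0015), but 0.33 with TOP2A and MKI67 alone as the score and 0.15 after thinning each cell to 4000 UMIs. Its partner CDT1 had 13.0 and 16.4, then 29.7 and 34.5, then 21.3 and 21.9 CPM, and remained higher in high-score than in low-score cells (0.61). Of the factors that fire the helicase, CDC45 had the largest step among the licensing genes, with 11.6 and 12.6, then 38.6 and 35.9, then 24.1 and 25.7 CPM. It rose by 1.65 on the log2 scale (SE 0.086) in middle-score over low-score cells and had a log2 fold change of -0.58 in high-score over middle-score cells (edgeR adjusted p = 2.1e-07). GINS2, a subunit of the GINS complex, and MCM10, which helps the helicase start, were both higher in high-score than in low-score cells, by 0.42 and 0.18. MCM10 was not called with DESeq2, with a mitochondrial limit of 15% or without the 10% of cells highest in hepatocyte markers.

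PCNA, the sliding clamp and a common marker of S phase, was at 141 and 149 CPM in low-score, 271 and 259 CPM in middle-score and 224 and 222 CPM in high-score cells. Its log2 fold change was -0.23 in high-score over middle-score cells and 0.65 in high-score over low-score cells. POLA1, the catalytic subunit of the polymerase that extends primers, had 46.0 and 45.0, then 91.2 and 73.8, then 40.6 and 38.5 CPM. Both of its high-score values were below both low-score values (log2 fold change -0.17, edgeR adjusted p = 0.005, but 0.24 with TOP2A and MKI67 alone as the score). Genes that finish the lagging strand kept most of their middle-score level. FEN1, the flap nuclease, had 23.6 and 25.6, then 64.4 and 63.1, then 53.0 and 51.9 CPM. LIG1, the ligase, had 28.9 and 30.1, then 54.1 and 60.5, then 54.6 and 54.0 CPM, and its middle-score and high-score values overlapped (-0.05, adjusted p = 0.65). The clamp loader subunits RFC2 and RFC4 and the primase subunit PRIM1 were higher in high-score than in low-score cells, by 0.22, 0.50 and 0.63 (RFC2 by 0.11 in library 2 alone, and not called with DESeq2 or without the 10% of cells highest in hepatocyte markers), and POLE2, a subunit of the leading-strand polymerase, was not called (0.11). FEN1 overlaps FADS2 and PRIM1 overlaps NACA on the same strand, where a strand setting would not separate the reads. FEN1 also overlaps TMEM258, and RFC4 overlaps EIF4A2, on the other strand, as MCM7 does with AP4M1. The levels of these genes are therefore uncertain.

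RRM2, the subunit of ribonucleotide reductase that is made for S phase, had the largest step of all members. It was at 28.7 and 34.97 CPM in low-score cells, 194 and 193 CPM in middle-score cells and 239 and 227 CPM in high-score cells. Its log2 fold change was 2.64 (SE 0.056, edgeR adjusted p = 3.1e-32) in middle-score over low-score cells and a further 0.29 (SE 0.045, adjusted p = 3e-06) in high-score over middle-score cells. The larger subunit of the same enzyme, RRM1, had 61.4 and 63.7, then 138 and 124, then 151 and 149.8 CPM, with steps of 1.09 and 0.21. Thymidylate synthase, TYMS, had 181 and 188, then 361 and 362, then 416 and 423 CPM, and thymidine kinase, TK1, had 47.5 and 50.1, then 119 and 122, then 131 and 136 CPM. In each of the 4 genes both high-score values lay above both middle-score values, which was not counted over all genes tested. With DESeq2 the second step was called for RRM1 and TYMS and not for RRM2 (adjusted p = 0.14) or TK1 (adjusted p = 0.058). TYMS, at chr18:657604-673578 on the plus strand, overlaps TYMSOS and ENOSF1 on the other strand, and PCNA, RRM2, TYMS and FEN1 have 3, 3, 2 and 1 named pseudogenes that could share reads with them.

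Among the chromatin genes, the remodeller HELLS had 55.2 and 56.8 CPM in low-score, 131 and 123 CPM in middle-score and 88.5 and 86.1 CPM in high-score cells. ATAD2, a bromodomain ATPase found at newly replicated chromatin, and UHRF1, which carries DNA methylation over to the new strand, followed the same course, with log2 fold changes of 0.66 and 0.29 in high-score over low-score cells. SLBP, which binds and stabilises the histone mRNAs made in S phase, had 49.3 and 47.7, then 87.9 and 89.9, then 41.8 and 40.5 CPM. It ended below its low-score level in both libraries (-0.21, edgeR adjusted p = 0.0002, but 0.10 with TOP2A and MKI67 alone as the score). The chromatin assembly subunits CHAF1A and CHAF1B were higher in middle-score than in low-score cells, by 0.88 and 0.94, and not called between high-score and low-score cells. HELLS overlaps TBC1D12, and CHAF1B overlaps MORC3, on the same strand.

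The entry and checkpoint genes had the lowest median of the 5 roles after the middle range. CCNE2, a cyclin E, was at 15.0 and 15.95 CPM in low-score, 54.3 and 49.5 CPM in middle-score and 13.1 and 14.7 CPM in high-score cells. Its log2 fold change was 1.77 in middle-score over low-score cells and -1.90 in high-score over middle-score cells (SE 0.082, edgeR adjusted p = 6e-22), and high-score and low-score cells did not differ past the threshold (-0.13, adjusted p = 0.15). That last value was 0.80 with TOP2A and MKI67 alone as the score and 0.56 after thinning. CCNE1, the other cyclin E, was sparse, with 7.10 and 8.12, then 12.9 and 8.86, then 3.49 and 2.43 CPM. It was lower in high-score than in low-score cells, at -1.27 (SE 0.146, adjusted p = 8.1e-10). E2F1, itself a target of E2F factors, had 15.0 and 16.2, then 32.5 and 34.0, then 13.8 and 13.2 CPM, and did not pass the threshold between high-score and low-score cells (adjusted p = 0.062), where its value was 0.38 with TOP2A and MKI67 alone and 0.55 after thinning. DTL, the adaptor that marks CDT1 for destruction on replicating DNA, had 28.3 and 29.6, then 52.9 and 55.1, then 21.3 and 22.3 CPM, and was lower in high-score than in low-score cells (-0.38), but at 0.19 with TOP2A and MKI67 alone. CLSPN, the adaptor of the fork checkpoint kinase, and BRIP1, a helicase of fork repair, were higher in high-score than in low-score cells, by 0.81 and 0.47. CCNE2 overlaps INTS8 on the other strand.

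**Figure D2:**
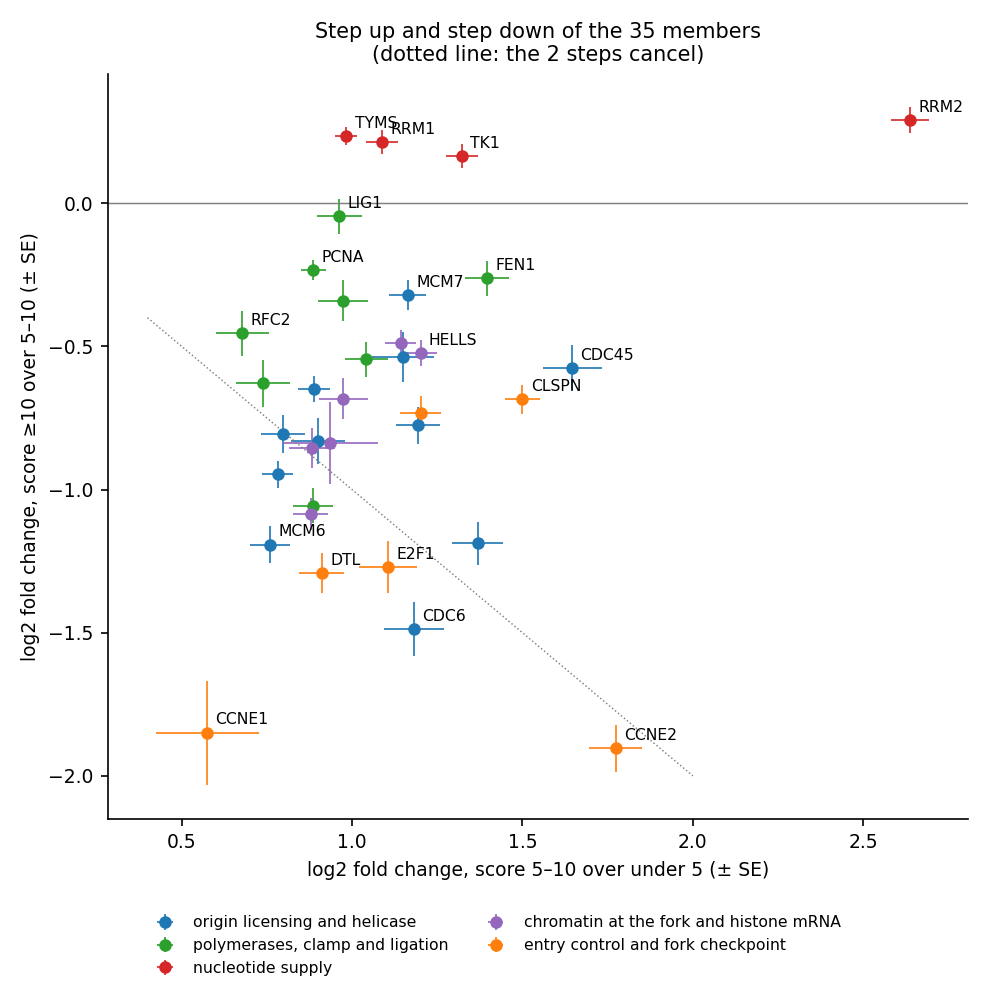
Log2 fold change of each member in middle-score over low-score cells (horizontal, ± SE) against that in high-score over middle-score cells (vertical, ± SE), coloured by role; on the dotted line the steps cancel. The nucleotide genes sit above 0 on the vertical axis, LIG1 is close to 0, and CCNE2 and CCNE1 are lowest.

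Set directly against low-score cells, high-score cells had 21 members higher and 7 lower, with 7 not called and a median log2 fold change of 0.29. Over all genes tested 27.6% were called higher and 28.1% lower. The 7 lower members were MCM3, MCM6, CDC6, POLA1, SLBP, CCNE1 and DTL, and the 7 not called were MCM2, MCM5, POLE2, CHAF1A, CHAF1B, CCNE2 and E2F1. All 4 nucleotide genes, 6 of 8 polymerase and ligation genes, 6 of 11 licensing genes, 3 of 6 chromatin genes and 2 of 6 entry and checkpoint genes were among those higher. The lower calls depended on the ranking: with TOP2A and MKI67 alone as the score 33 members were higher, among them all of those 21, and only CCNE1 was lower (-0.71). With each cell thinned to 4000 UMIs 26 were higher and 2 lower, MCM6 and CCNE1, and DESeq2 called 19 higher and 4 lower.

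Along 11 narrower ranges of the score the summed member level was highest in the middle. It was 682 and 837 CPM in cells with none of the 3 score genes, and 1785 and 1753 CPM at scores of 30 or more. The highest sum was 3248 CPM in library 1, at scores of 7.5 to 10, and 3007 CPM in library 2, at 5 to 7.5. In library 1, 20 members were highest at 7.5 to 10 and 6 at 5 to 7.5; in library 2, 4 and 23 members were highest in these ranges. The nucleotide genes were highest later, at 15 to 20 in library 1 (1016 CPM in sum) and at 20 to 30 in library 2 (996 CPM), and were still at 901 and 908 CPM at 30 or more. Licensing genes were at 762 and 747 CPM at their highest and at 237 and 230 CPM at 30 or more, and entry genes at 400 and 368 against 94.4 and 89.0 CPM. At 30 or more CCNE2 was at 1.11 and 0.733 CPM, 0.020 and 0.014 of its highest range, and CCNE1 at 0.033 and 0.055 of its own. TYMS kept 0.965 and 0.969 of its highest level and RRM1 0.996 and 0.875, while the 20 G2/M genes were higher in sum in each successive range, up to 5721 and 5618 CPM. The choice of score genes favours that rise of the G2/M genes. DTL in both libraries, MCM5 and CHAF1B in library 1, and CDC6 and CCNE1 in library 2 were highest below a score of 5.

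**Figure D3:**
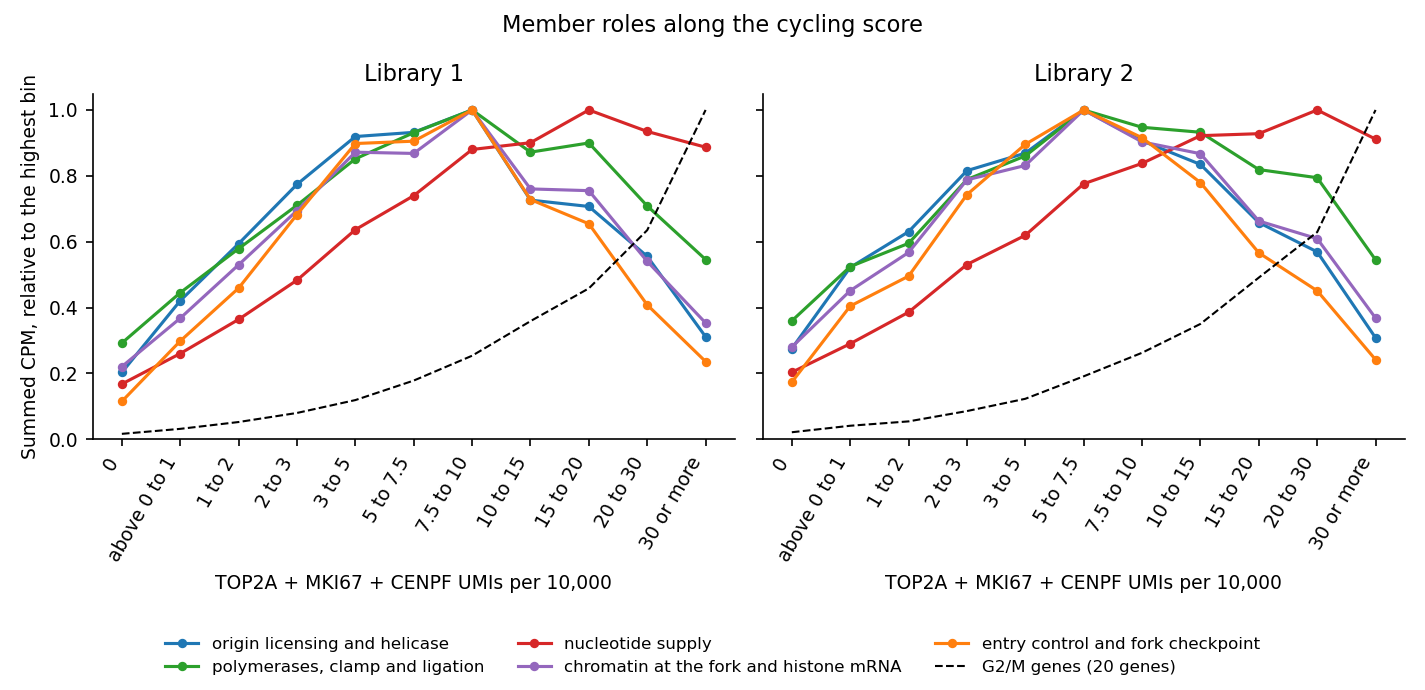
Summed CPM of each member role, and of the G2/M genes (dashed), in 11 ranges of the TOP2A, MKI67 and CENPF score, each scaled to its highest range, for library 1 and library 2. Licensing, polymerase, chromatin and entry genes are highest between 5 and 10 in both libraries, nucleotide genes at 15 to 20 or 20 to 30.

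Over single cells the members followed the score upwards at low scores and downwards at high scores. Among low-score cells all 35 members had a positive Spearman correlation with the score, with medians of 0.29 over 2477 cells and 0.27 over 2684 cells. Among high-score cells 31 of 35 were negative in each library, with medians of -0.14 over 1484 cells and -0.13 over 1656 cells. The lowest was CCNE2 (-0.31 and -0.30), and the 4 positive ones were LIG1, RRM1, TK1 and TYMS. In middle-score cells the medians were 0.04 and -0.04. The members were tied more closely to each other: over all cells, the correlation of a member with the sum of the other members had a median of 0.55 and 0.46, from 0.23 and 0.18 for CCNE1 to 0.73 and 0.65 for CLSPN. The closest pair over all cells was HELLS with CLSPN, at 0.61 and 0.50. These values share library and depth within each cell and are smaller in sparse genes; thinned to 4000 UMIs, the median with the other members was 0.29 and 0.28, and the median with the score was 0.096 and 0.106 in low-score and -0.099 and -0.103 in high-score cells.

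Summed over the 35 members, the level per cell spread widely within a score range. Low-score cells had a median of 7.77 and 8.32 member UMIs per 10000, middle-score cells 21.5 and 21.2, and high-score cells 16.6 and 17.7. The middle range was the broadest, with a lower quartile of 9.89 and 10.9 and an upper quartile of 47.7 and 45.9. Cells with 30 or more were called replication-rich, with the limit set after the distribution was seen. They were 20.1% of each library, 895 and 982 cells. Their share was 12.03% and 12.4% of low-score cells (95% exact intervals 10.8 to 13.4% and 11.2 to 13.8%), 44.2% and 42.6% of middle-score cells (39.8 to 48.7% and 38.4 to 46.8%), and 25.5% and 24.9% of high-score cells (23.3 to 27.8% and 22.8 to 27.0%). Of all replication-rich cells, 33.3% and 34.0% had a low score, 24.4% and 24.0% a middle score and 42.3% and 42.0% a high score. As a background, the 186 and 207 low-score cells with the most albumin, whose median depth of 20791.5 and 12103 UMIs was above that of low-score cells at large, were replication-rich in 2.15% and 0.966% of cases. After thinning to 4000 UMIs the shares averaged over libraries were 12.6%, 37.6% and 29.1% in low-score, middle-score and high-score cells.

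**Figure D4:**
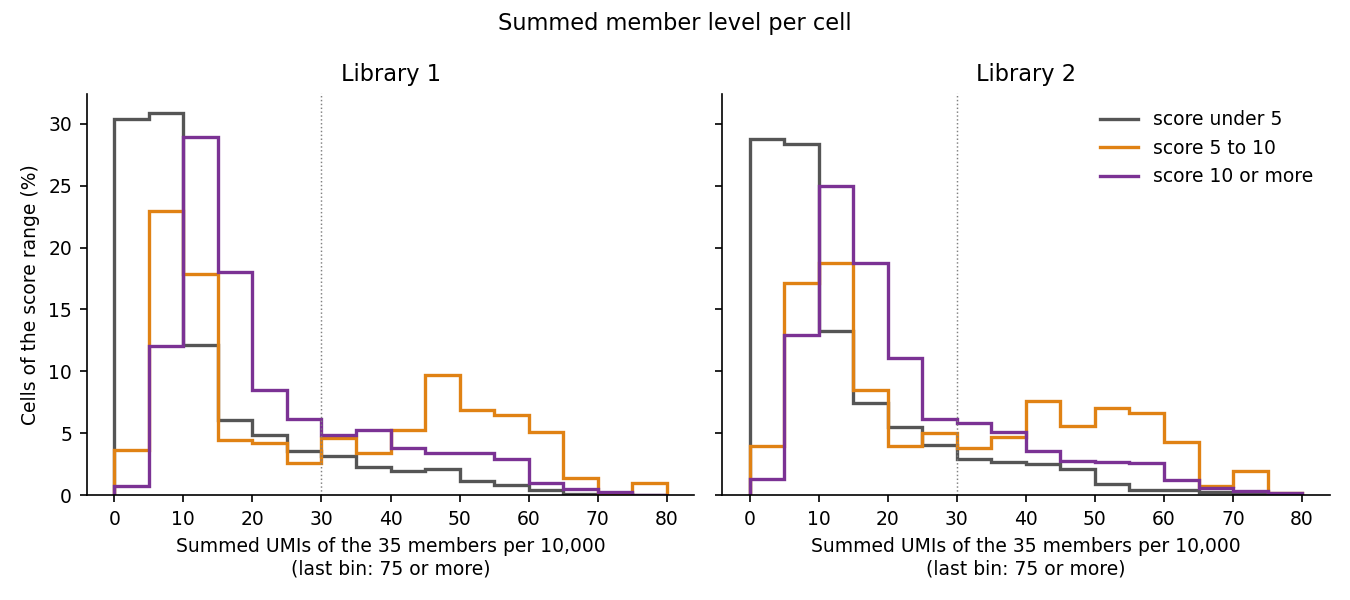
Summed UMIs of the 35 members per 10000 UMIs of a cell (horizontal, in steps of 5, with 75 or more in the last step) and the percentage of cells of each score range (vertical), for library 1 and library 2; the dotted line marks 30. Middle-score cells form a low and a high group in each library, with 44.2% and 42.6% at or above 30.

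The next comparison set cells in the top 20% of their library by 4 mesenchymal genes (COL3A1, SPARC, LUM and PDGFRB), called inside, against the remaining cells, called outside, within each score range. Median depth was 15722 and 9803 UMIs inside against 18041 and 10564 UMIs outside. In the low range the median mitochondrial share was 8.68% and 9.16% inside against 10.04% and 10.32% outside. The inside group held 891 and 979 cells. Along the score they were made up of 60.3% and 55.9% low-score cells inside against 54.4% and 54.6% outside, 28.96% and 32.2% high-score cells inside against 34.4% and 34.3% outside, and 10.8% and 11.95% middle-score cells inside against 11.1% and 11.2% outside. Inside cells also had fewer hepatocyte transcripts: in the low range 755 and 1143 CPM in sum inside against 6070 and 6741 CPM outside, and in the high range 390 and 875 CPM inside against 1577 and 1504 CPM outside. Biliary markers were higher in sum inside, at 1122 and 1108 CPM against 645 and 664 CPM outside in the low range and 681 and 745 CPM against 470 and 464 CPM outside in the high range. Of the 4 biliary markers tested, 1 was higher and 2 were lower inside in the low range. In the high range 1 was higher and 1 lower. Endothelial markers were at 57.8 and 56.4 CPM inside against 40.2 and 34.9 CPM outside in the low range and at 23.7 and 26.9 CPM against 13.5 and 13.7 CPM in the high range. The part of the biliary and endothelial markers in the differences below was not tested. CYP3A4 was at 0 inside among low-score and middle-score cells of both libraries, and had only 18 UMIs in all low-score cells of library 1. Of 8 mesenchymal markers tested, 7 were higher and 1 was lower inside in the low range, and again in the high range. In the middle range 6 were higher and 0 lower. These counts take in the 4 genes of the rule, whose calls are fixed by it. Among the markers outside the rule, THY1 was at 0 in each of the 3 score ranges inside. COL1A2 had 0 or 1 UMIs and VIM 0 to 9 UMIs per range and library, and DCN had 79.8 to 167 CPM. The markers did not all go 1 way, so the group is named by its rule and given no cell type. THY1, COL1A2 and VIM were also sparse in all low-score cells of library 1, at 2, 0 and 99 UMIs. Their low counts are therefore not particular to the inside group. Leaving out the cells highest in hepatocyte markers was done in 2 ways, with the top 20% taken anew among the cells left, and with the inside cells as chosen among all cells. Thinning was also done in 2 ways: with the cut taken on thinned cells, where tied values put 29.4% and 28.3% of cells inside, and with the inside cells as chosen from all UMIs, 20.2% and 19.9% of the thinned cells.

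In high-score cells 12 members were higher inside and 1 was lower, with 8.22% of the 15983 genes tested called higher and 8.63% lower. BRIP1 was at 62.7 and 62.7 CPM inside against 43.2 and 44.6 CPM outside, a log2 fold change of 0.48 (edgeR adjusted p = 0.00023), but -0.12 after thinning with the cut taken on thinned cells and 0.19 after thinning with the original inside cells, neither of them called. CLSPN had 112 and 99.4 CPM inside against 84.2 and 75.8 CPM outside (0.37, adjusted p = 0.00022), and CCNE2 had 20.2 and 23.3 CPM inside against 11.8 and 12.7 CPM outside (0.79, adjusted p = 0.00071). In these 3 genes both inside values lay above both outside values. How many of all genes tested do so was not counted. The other 9 were MCM3, MCM10, CDC45, POLA1, HELLS, UHRF1, ATAD2, SLBP and DTL. TYMS was the lower one, with 392 and 409 CPM inside against 421 and 426 CPM outside (-0.12, adjusted p = 0.033), a call that 9 of 12 alternatives with a test did not give. SLBP, called higher inside at 0.25, had a log2 ratio of 0.16 in library 1 alone. RRM2 (251 and 222 CPM inside against 237 and 228 CPM outside) and PCNA (226 and 221 CPM against 223 and 223 CPM) were not called. The members' median was 0.22, and without the cells highest in hepatocyte markers it was 0.23 either way, with 16 members higher and none lower with a new cut and 13 higher and 1 lower with the original inside cells, all 12 among the higher ones both times. After thinning to 4000 UMIs 1 member was called higher with the cut taken on thinned cells, and 3 with the original inside cells.

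In middle-score cells 8 members were higher inside and none lower, against 3.75% and 3.03% of all genes tested, and all 35 fold changes were above 0, with a median of 0.25. The 8 were MCM3, MCM10, GINS2, PCNA, HELLS, UHRF1, CLSPN and BRIP1. MCM10 had 70.7 and 56.7 CPM inside against 42.7 and 41.4 CPM outside (0.59, edgeR adjusted p = 0.0019), and PCNA had 329 and 314 CPM inside against 259 and 245.5 CPM outside (0.33, adjusted p = 0.00026). Replication-rich cells made up 52.1% and 53.8% of middle-score cells inside (95% exact intervals 41.6 to 62.4% and 44.4 to 63.1%) and 42.3% and 39.6% outside (37.4 to 47.3% and 34.97 to 44.3%). In library 2 alone BRIP1 had a log2 ratio of 0.29 and CLSPN of 0.19, against 0.53 and 0.35 in the fit of both. Without the cells highest in hepatocyte markers 6 members were called with a new cut and 7 with the original inside cells. After thinning 0 were called with the cut taken on thinned cells and 2 with the original inside cells, and 1 was called with inside cells limited to the top 10%.

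In low-score cells 18 members were higher inside and none lower, with 14.8% and 13% of all genes tested called, and the members' median was 0.23. Without the cells highest in hepatocyte markers and with the original inside cells, BRIP1, HELLS and POLA1 were higher, none was lower, and the median was 0.07. With the top 20% taken anew no member was higher, RRM2 (-0.33), TYMS (-0.14) and TK1 (-0.26) were lower, and the median was -0.05. The count of 18 was also smaller under other settings: 1 after thinning with the cut taken on thinned cells, 5 after thinning with the original inside cells, 4 with the top 10% inside, 7 with TOP2A and MKI67 alone as the score, 8 with a mitochondrial limit of 15%, and 9 each with DESeq2 and without the filter on low counts. The shares of all genes called under these settings are not given. Thinning removes UMIs of every gene, so a general loss of calls cannot be told apart from a loss particular to the members. Summed member levels were 1609 and 1563 CPM inside against 1328 and 1413 CPM outside with all cells, and 1618 and 1561 CPM inside against 1494 and 1603 CPM outside without the cells highest in hepatocyte markers, with the original inside cells. MCM7 and GINS2, called higher inside, had log2 ratios of 0.39 and 0.43 in library 1 but 0.02 and 0.07 in library 2. MCM3, MCM4, CHAF1A, POLA1 and BRIP1 were also smaller in library 2 alone, at 0.11, 0.11, 0.15, 0.19 and 0.23 against 0.18, 0.19, 0.26, 0.35 and 0.46 in the fit of both. Whether the change between high-score and low-score cells itself differed between inside and outside was tested as an interaction: no member was called by edgeR or DESeq2, where edgeR called 0.845% of all genes higher and 0.732% lower. At an unadjusted p under 0.05 edgeR gave 5 members, CCNE2, HELLS, CDC6, TYMS and PCNA, and the members' values ran from -0.30 to 0.47 with a median of -0.03. Without the cells highest in hepatocyte markers the median was 0.24 with a new cut and 0.14 with the original inside cells, with no member called in either.

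**Figure D5:**
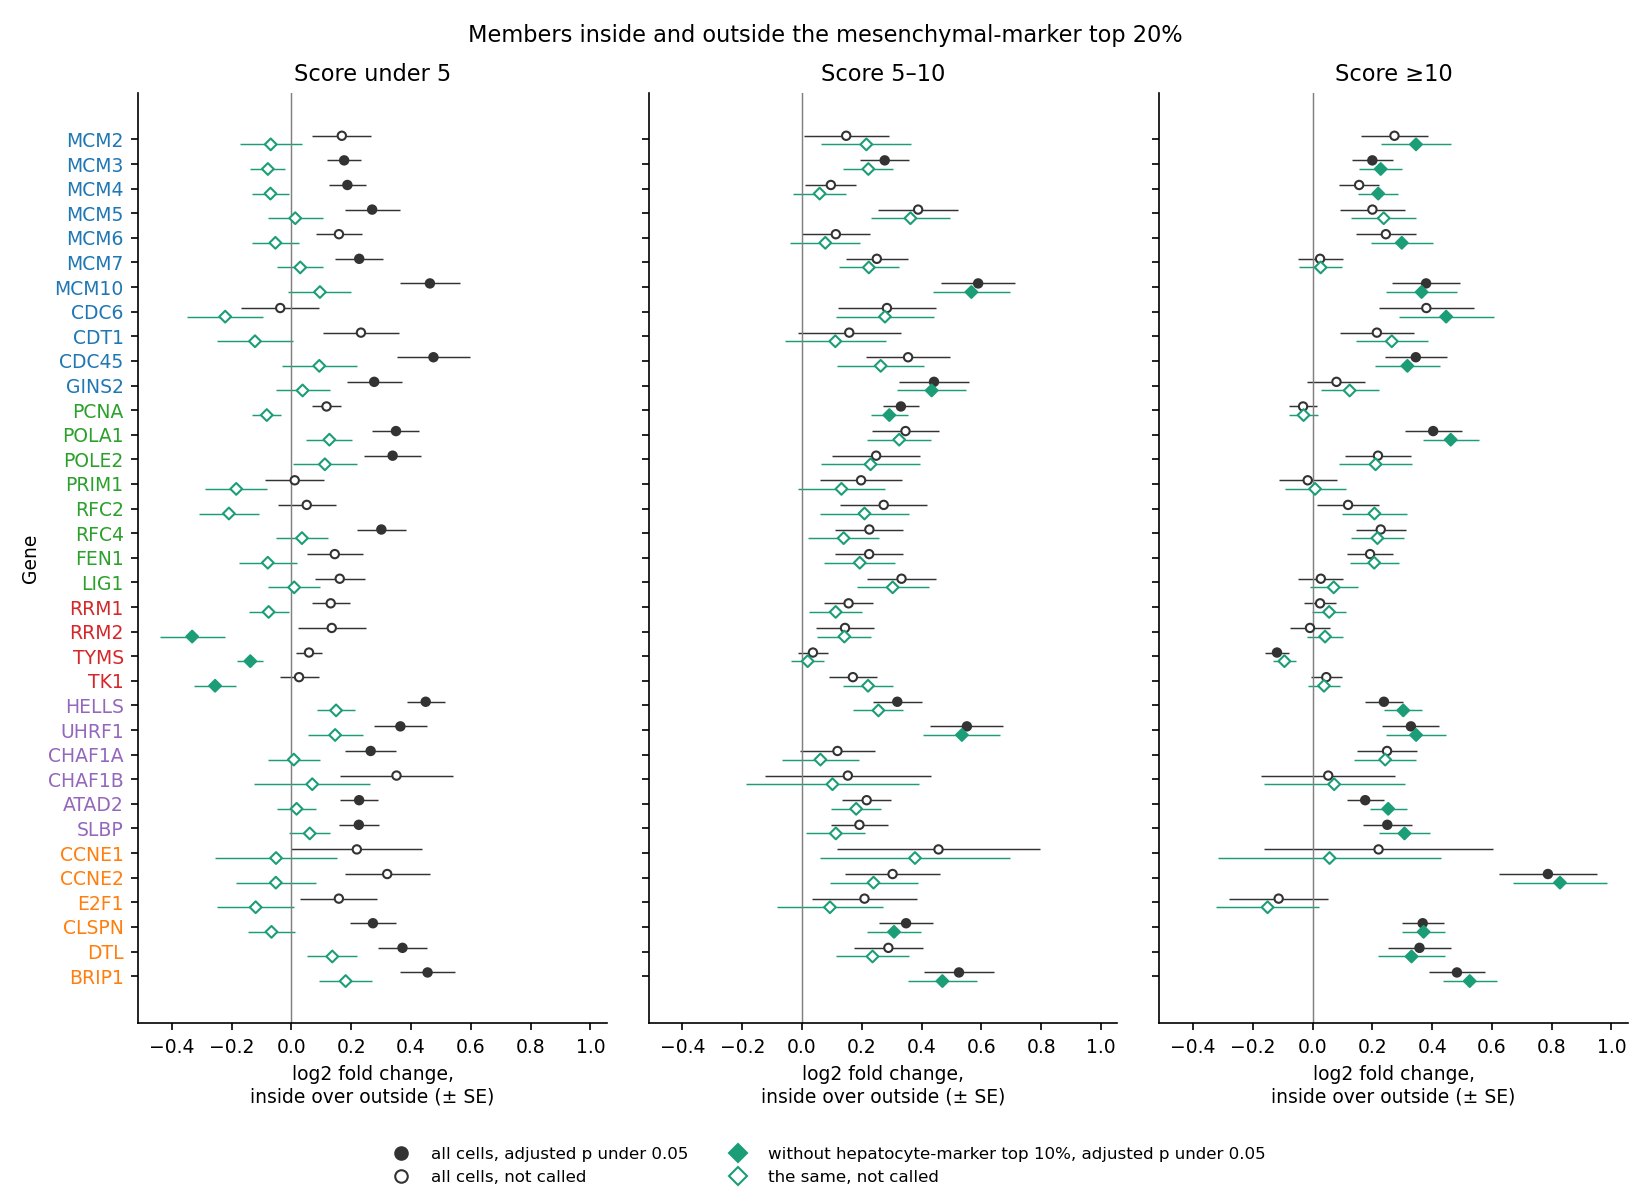
Log2 fold change (± SE) of each member inside over outside the top 20% of cells by mesenchymal genes, in low-score, middle-score and high-score cells; circles are all cells, diamonds leave out the 10% of cells highest in hepatocyte markers and take the top 20% anew among the rest, and filled symbols passed an adjusted p of 0.05. In the low-score panel the diamonds lie around 0 (median -0.05), in the other panels they stay near the circles.

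Other genes of the pathway were read from lists that hold none of the members. Of 45 further replication genes 38 were higher and 2 lower in high-score than in low-score cells, with a median of 0.57, where 27.6% of all genes tested were called higher and 28.1% lower. DBF4, the activator of the kinase CDC7 that fires origins, had 152 and 154 CPM in high-score cells against 30.6 and 32.0 CPM in low-score cells, a log2 fold change of 2.32 (SE 0.040, edgeR adjusted p = 1.5e-36). The thymidylate kinase DTYMK had 236 and 236 CPM against 80.1 and 84.8 CPM (1.55), and the histone chaperone ASF1B and the helicase subunit GINS1 were higher by 1.53 and 1.26. POLD4 (-0.56) and SHMT1 (-0.31) were the lower ones. Of 15 S-phase repair genes 12 were higher, led by RAD51AP1 (2.16), FANCD2 (1.81), FANCI (1.603) and BRCA2 (1.28), and 3 were lower, among them the uracil repair gene UNG (-1.23) and the mismatch repair gene MSH6 (-0.56). Of 23 G1/S regulators tested 16 were higher and 5 lower, the lower ones a smaller share than among all genes tested. CDKN2D, an inhibitor of the kinases CDK4 and CDK6, had 36.4 and 40.4 CPM in high-score cells against 4.39 and 4.31 CPM in low-score cells (3.16), followed by CDKN2C (1.94), another such inhibitor, and the repressors E2F8 (1.94) and E2F7 (1.24). The 5 lower ones included the D cyclins CCND1 (-0.16), CCND2 (-0.22) and CCND3 (-0.20), and CDK6 (-0.41), a kinase they activate. CDK4, the other such kinase, was higher (0.52). Of 19 G2/M genes tested 18 were higher, with a median of 3.89, led by PLK1 (5.39), AURKB (4.56), CENPE (4.38) and DLGAP5 (4.12). The score genes mark G2 and mitosis themselves, so this rise follows from the ranking and is a description. CCNB2, the gene not called, was at 0.46 and 0.82 CPM in high-score cells.

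Low-score cells also contained a set with high member levels. The 10% of low-score cells with the highest summed member level, 248 and 269 cells, are called replication-high; the lowest of them had 32.69 and 34.01 member UMIs per 10000 and the highest of the other cells 32.63 and 33.97. Since the members chose these cells, their values are a description. CCNE2 was at 88.1 and 89.3 CPM in replication-high cells against 5.59 and 6.66 CPM in other low-score cells, CLSPN at 231 and 245 CPM against 24.5 and 26.5 CPM, and PCNA at 344 and 340 CPM against 115 and 125 CPM. The CCNE2 level there was above that of middle-score cells (54.3 and 49.5 CPM), while RRM2, at 160 and 173 CPM in replication-high cells, was below that of middle-score cells (194 and 193 CPM). Middle-score cells were not chosen by member level, and 44.2% and 42.6% of them were replication-rich. The choice by member level favours a high CCNE2 in replication-high cells, so this order does not show how the score ranges differ. Replication-high cells had 583 and 653 CPM of G2/M genes in sum against 218 and 236 CPM in other cells, 915 and 902 CPM of hepatocyte markers against 5567 and 6339 CPM, 1055 and 990 CPM of biliary markers against 697 and 714 CPM, and a median depth of 19324.5 and 11280 UMIs against 15782 and 9341 UMIs. Of the 4 biliary markers tested, 1 was higher and 2 were lower in replication-high cells.

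Genes outside the member list were tested between these cells. The members chose the cells, so genes that vary with the members from cell to cell are favoured. Calls on related lists are therefore no independent evidence. All 15 S-phase repair genes were higher in replication-high than in other low-score cells, with a median of 2.47, and so were 40 of 45 other replication genes, with a median of 1.502, where 22.6% of 16999 genes were called higher and 18.9% lower. POLD4 (-0.29) and ORC4 (-0.26) were lower. The highest of them was E2F8, an E2F repressor, with 42.3 and 36.7 CPM in replication-high cells against 2.14 and 2.37 CPM in other cells (log2 fold change 4.19). FAM111B (165 and 172 CPM against 10.2 and 13.5 CPM, 3.89), the cohesin acetyltransferase ESCO2 (3.85), the nuclease EXO1 (49.3 and 46.2 CPM against 3.37 and 4.21 CPM, 3.72) and the sororin gene CDCA5 (3.66) followed. CDK1 (3.48), ASF1B (3.38), the polymerase gene POLQ (3.14), RAD54L (3.14) and the phosphatase gene CDC25A (3.07), which promotes entry into S phase, were also among the 20 highest, with KIFC1, SPC25, PKMYT1, NEIL3, KIF18B, NCAPG, CKAP2L, TCF19 and NCAPH between 3.02 and 3.42. The G1/S regulators, the list that holds E2F8 and CDC25A, did not rise as a whole. Of 23 tested 14 were higher and 6 lower, among the lower ones CCND3 (-0.87), with a median of 0.45. Of 18 G2/M genes tested 14 were higher and 1, CCNB1, was lower (-0.64). The 10 lowest genes included secreted liver proteins, GC (-4.90), TF (-4.73), HP (-3.74), APOH (-3.60), CPB2 (-3.41), APOC3 (-3.28) and ALB, which had 328 and 338 CPM in replication-high cells against 3204 and 3667 CPM in other cells (-3.33). The liver sulfotransferase SULT2A1 (-5.01) was the lowest of them. The fit has 4 sums and so few degrees of freedom of its own that it rests on the spread shared between genes; DESeq2 called 1783 genes higher and 1015 lower where edgeR called 3840 and 3213.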

How the data were processed

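The 2 vehicle libraries were deposited as UMI counts per barcode and gene, made with Cell Ranger 7.0.0 per the file headers; the submitters' processing notes name STAR and GRCh38. For the annotation release, introns and strand the setting is not given in the sources used here. The 12 antibody features held 0 UMIs. Cells were barcodes reaching 500 genes and 1000 UMIs whose mitochondrial share did not exceed 25%, and 7 kept barcodes occurred in both libraries. Free RNA was not subtracted and no doublet caller was run; leaving out the top 4% of cells by UMIs was an alternative. The members and all gene lists were chosen with earlier results of these data known.

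Raw counts were summed per library and cell group and tested with edgeR 4.0.16 (TMM, filterByExpr, quasi-likelihood, library as a block, Benjamini-Hochberg over all genes tested, threshold 0.05) in R 4.3.3, on 6 sums for score ranges, 12 for inside and outside and 4 for replication-high cells. The library is the same sample on both sides of each comparison, which is where the pairing comes from. The procedure was tested on simulated data with 200 changed genes. CPM is UMIs per 1000000 of the summed group. Further genes were named by a rule: from each list the 4 called genes with the largest change at 10 CPM or more, and in replication-high cells the 20 highest and 10 lowest called genes moving the same way in both libraries; genes named beyond it, as the lower calls of a list, were chosen after their values were seen. A few genes that the rule or a list takes in are not reported here. Alternatives were DESeq2 1.42.0, its size factors, no filter, no block, each library alone, other score genes with the same number of cells per range, other limits, and cells thinned to 4000 UMIs, which leaves out 64 and 83 shallower cells. Leaving out the 10% of cells highest in hepatocyte markers, and keeping the original inside cells when leaving cells out or thinning, were chosen after seeing the data. Intervals cover counting error only. Promoters came from RefSeq on GRCh38.p14, gene spans from GENCODE 29.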

Additional observations from a re-analysis of the deposited data

How the results depend on the processing

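Thinning each cell to 4000 UMIs turned the sign of the high-score over low-score log2 fold change of CCNE2 (0.56), CDC6 (0.15), E2F1 (0.55), MCM3 (0.084), MCM5 (0.42) and POLA1 (0.088), of CCNE1 in middle-score over low-score cells (-0.0081), of FEN1 (0.074) and LIG1 (0.088) in high-score over middle-score cells, and, inside over outside, of GINS2 (-0.0065) and SLBP (-0.058) in low-score and BRIP1 (-0.12) in high-score cells. It left 2 members lower in high-score than in low-score cells; inside cells had 1 member higher in low-score, 0 in middle-score and 1 in high-score cells, the last with 0 lower, where the cut on thinned cells put 29.4% and 28.3% of cells inside; with the original inside cells the counts were 5, 2 and 3, with 0 lower in high-score cells. It left 1 other replication gene lower and 1725 and 1237 genes higher and lower in replication-high cells. The median correlations with the score became 0.064 (all cells), 0.10 (low) and -0.10 (high), the shares of cells 51.8%, 12.8% and 35.3%, and the replication-rich shares 12.6%, 37.6% and 29.1% in low-score, middle-score and high-score cells. Scoring by TOP2A and MKI67 alone turned CCNE2 (0.80), CDC6 (0.33), DTL (0.19), E2F1 (0.38), MCM3 (0.21), MCM5 (0.40), MCM6 (0.0018), POLA1 (0.24) and SLBP (0.10) between high-score and low-score cells, and FEN1 (0.045) and LIG1 (0.19) between high-score and middle-score cells; 33 members were higher and 1 lower in high-score than in low-score cells, inside cells had 7 higher in the low and 13 in the middle range and 0 lower in the high range, and 1 other replication gene was lower in replication-high cells. Leaving out hepatocyte-marker-high cells, with the top 20% taken anew, turned CHAF1A (-0.12), CHAF1B (-0.062) and MCM2 (-0.052) between high-score and low-score cells and CLSPN (-0.067), MCM3 (-0.079), MCM4 (-0.070) and the members' median (-0.052) inside low-score cells, where signs are listed only for members called with all cells and 17 members were above 0, against 34 with all cells; 0 were higher and 3 lower there, with 0 lower in high-score cells and 1 other replication gene lower in replication-high cells. With the original inside cells 3 were higher inside low-score cells. A mitochondrial limit of 15% turned CHAF1A (-0.029) and MCM2 (-0.0015), with 8 members higher inside low-score and 0 lower inside high-score cells. MCM5 changed sign with DESeq2 size factors (0.00089) and without the top 4% of cells by UMIs (0.019), which left 0 lower inside high-score cells. With 10% in place of 20% of cells inside, MCM3 changed sign in low-score cells (-0.0087), and 4, 1 and 7 members were higher in low-score, middle-score and high-score cells, with 0 lower. DESeq2 gave 2 members higher in high-score than in middle-score and 4 lower in high-score than in low-score cells, 9 higher inside low-score and 0 lower inside high-score cells, 1783 and 1015 genes higher and lower in replication-high cells and 1 other replication gene lower there. Without a filter on low counts 9 members were higher inside low-score cells. The cause was not tested, and outside the replication-high comparison the calls over all genes are not given for the alternatives. Over single genes (inside and outside, only the called ones), 1358 of 1589 alternative values kept direction and side of the threshold, 184 lost and 11 gained the call, 34 turned and 2 untested values moved.

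Without the replicate block, 0 members were lower inside high-score cells and 1 other replication gene was lower in replication-high cells; it changed no other count of calls by over 1.5 times. With either library left out no residual degrees of freedom remain, so values carry no test. The members' median ran from 0.97 to 1.01 (middle over low), -0.68 to -0.64 (high over middle) and 0.29 to 0.31 (high over low), inside over outside from 0.12 to 0.31 (low), 0.25 to 0.27 (middle) and 0.18 to 0.24 (high), and for the interaction from -0.11 to 0.083; that of the other replication genes ran from 0.58 to 0.61 in high-score over low-score and from 1.42 to 1.47 in replication-high cells. Library 1 is the deeper, and genes such as CCNE1, below 15 CPM in every range, are limited by depth.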
